A study of Mus musculus with 8 samples.

Results

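Among the blood endothelial cells of a mouse melanoma, 549 cells had a joint score of Npr3, Vegfc and Dkk2 above that of 4 other gene sets; all 3 genes were detected in 208 of them. The tumor was MT-ret melanoma, of which fragments had been implanted on the flank of 10 mice of the strain C57BL/6N. Blood endothelial cells (BEC) were sorted from the tumors by flow cytometry, and so were lymphatic ones (LEC), 10000 of each. For each sort 4 droplet libraries were prepared with version 2 of the Chromium 3′ chemistry, which tags every captured molecule with a unique molecular identifier (UMI). The deposited matrix held 3228 BEC and 4407 LEC, 7635 cells in all, and its column names gave the sort but no animal or library. Each sort was therefore 1 sample, all animals were of 1 strain with 1 tumor type, and no control tissue without tumor was among the samples.

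Members were chosen by a score. Of the 3228 BEC, 3170 were kept: 22 with at least 20 UMIs from the pigment cell genes Dct, Tyrp1, Pmel and Tyr and 36 with at least 20 UMIs from the stromal genes Col3a1 and Rgs5 were left out. Each kept cell was scored for 5 sets of genes by the mean of log(1 + UMIs per 10000), and each score was expressed as z, its distance from the mean of the kept cells in standard deviations. The sets were Npr3, Vegfc and Dkk2; Gja5, Sema3g and Stmn2 (arterial genes); Apln, Tnfrsf9 and Kit (genes of the sprouting front); Aplnr and Ramp3; and Ackr1, Selp and Vwf (venous genes). A member had its highest z for the Npr3, Vegfc and Dkk2 set, with z over 0.5. This gave 549 of 3170 kept cells, 17.3% (95% interval 16.0 to 18.7). By the same rule the Gja5 set held 309 cells, the Apln set 552, the Aplnr set 736 and the Ackr1 set 346, and 678 cells had no set over the limit. The classes are ranges of a score and not separate cell types.

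The 3 genes of the score act in different pathways. Npr3 encodes the clearance receptor that binds natriuretic peptides and removes them from the surroundings of the cell, and it is also a gene of the endocardium. Vegfc encodes a secreted growth factor that drives lymphatic growth through the receptor encoded by Flt4 and can also act through Kdr. Dkk2 encodes a secreted modulator of Wnt signaling that binds the co-receptors encoded by Lrp5 and Lrp6. Endothelial cells of growing vessels pass through states with known markers: Esm1, Apln and Angpt2 at sprouting tips, Notch targets such as Hey1 in cells that take on arterial character, and Ackr1, Selp and Nr2f2 in veins and venules.

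The 250 bases before the RefSeq start site of each score gene are shown, and these windows differ in base composition. A link between the windows and the levels of the genes was not tested. The build is GRCm38.p6, each window is written 5′ to 3′ on the strand of the gene, and capitals mark CG dinucleotides.
Npr3, chr15:11907372-11907621, minus strand: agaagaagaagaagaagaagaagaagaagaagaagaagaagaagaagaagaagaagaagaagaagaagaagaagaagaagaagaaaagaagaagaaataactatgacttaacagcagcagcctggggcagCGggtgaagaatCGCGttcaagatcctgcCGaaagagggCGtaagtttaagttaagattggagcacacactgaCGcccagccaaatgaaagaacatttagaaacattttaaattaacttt
Vegfc, chr8:54077282-54077531, plus strand: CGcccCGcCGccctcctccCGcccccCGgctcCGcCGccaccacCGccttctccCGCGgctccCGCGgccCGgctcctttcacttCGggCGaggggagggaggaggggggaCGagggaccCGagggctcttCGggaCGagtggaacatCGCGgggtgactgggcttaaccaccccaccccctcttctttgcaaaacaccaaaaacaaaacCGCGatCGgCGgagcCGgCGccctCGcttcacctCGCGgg
Dkk2, chr3:132085042-132085291, plus strand: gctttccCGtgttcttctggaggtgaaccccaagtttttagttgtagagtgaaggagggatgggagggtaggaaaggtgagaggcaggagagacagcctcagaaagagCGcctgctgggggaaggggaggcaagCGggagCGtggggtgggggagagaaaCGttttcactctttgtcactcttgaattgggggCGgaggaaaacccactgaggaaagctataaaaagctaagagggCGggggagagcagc
The Npr3 window was 38.8% G or C with 6 CG dinucleotides, and it opened with a long run of AGA repeats in which, with the rest of the window, GAA occurred 37 times. The Vegfc window was 71.6% G or C with 30 CG dinucleotides, and the Dkk2 window was 55.6% G or C with 7. Over 32536 RefSeq promoter windows of the same length the median was 52.4% G or C (quartiles 45.2 and 61.2) and 6 CG dinucleotides (quartiles 2 and 16), so the Vegfc window was above the upper quartile on both measures and the Npr3 window below the lower quartile in G and C. A further search took 3 short motifs and looked for them on both strands: TGGGAA, the core bound by the Notch effector RBPJ; ACGTG, the core of hypoxia response elements; and GGAAGT, a core for ETS factors. None of these letters occurred in the 3 windows, while 21.6%, 16.7% and 19.8% of all windows held them. Of the 15 genes with the highest ratio described below, 8 had an entry in the promoter table, and 1 held each motif: Mfge8 the RBPJ core, Armcx2 the hypoxia core and Acer2 the ETS core. In the GENCODE annotation of GRCm38, Npr3 lies at 11839896 to 11907287 on the minus strand of chromosome 15, Vegfc at 54077606 to 54187096 on the plus strand of chromosome 8 and Dkk2 at 132085292 to 132180304 on the plus strand of chromosome 3. All 3 are protein-coding.

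The members had the expression of blood endothelium. All 10 pan-endothelial markers (among them Pecam1, Cdh5 and Kdr) were at 10 CPM or more, where CPM is the UMIs of a gene per 1000000 UMIs summed over the cells of a class, and they summed to 10594 CPM, within the range of 8701 to 11017 CPM over the 4 other sets. One of these markers, Cldn5, was at least 1.5-fold lower in members than in all other kept BEC, and than in the Gja5 and Apln sets. It was at least 1.5-fold higher than in the Ackr1 set. The 10 lymphatic markers summed to 95.1 CPM, against 35432 CPM in 3700 lymphatic cells of the LEC sort. Of the 10, 9 were detected in members, and the lymphatic surface gene Pdpn was at 0. The 10 mural markers summed to 242 CPM (186 to 404 in the other sets). Of these, 8 were detected, and the pericyte genes Pdgfrb and Cspg4 were at 0. The mural genes Kcnj8 and Abcc9 were at least 1.5-fold higher in members than in all other kept BEC, and Acta2 and Tagln were lower. The 8 fibroblast markers summed to 2.59 CPM, with 6 detected and Pdgfra and Fbln1 at 0. Macrophage, pan-leukocyte, T and NK cell and red cell markers summed to 5.09 CPM or less each, and Ptprc was at 0. Other foreign markers were higher. The 8 pigment cell markers were all detected in members and summed to 30.4 CPM. Their sum was 35.6 CPM in the Gja5 set and lower than in members in the Apln, Aplnr and Ackr1 sets. Platelet markers summed to 17.9 CPM in members and keratinocyte markers to 8.37 CPM. The median member had 19817 UMIs (6968 to 71896) and 2891 genes, against 19334 UMIs and 2824 genes in the other kept cells, and their median mitochondrial share was 3.77%, against 3.33%. Of the barcodes, 34 occurred in both sorts, and 6 of these belonged to members. No doublet caller was run.

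With 1 sample there was no replicate check and no test. Intervals are at the 95% level: exact Poisson for a CPM, exact conditional binomial for a ratio and Clopper-Pearson for a share. They cover counting error only. A gene is called higher or lower when the ratio of pooled levels is at least 1.5-fold, among 7303 genes at 10 CPM or more over all kept BEC. Because measured values chose the members, every contrast between members and other cells of the BEC sort describes the choice and supports nothing beyond it.

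Npr3, which separated the members most, was at 119 CPM in members and 10.2 CPM in all other kept BEC, 11.7-fold higher (10.6 to 12.9). It stood at 22.7 CPM in the Gja5 set cells, 12.5 in the Apln set, 7.69 in the Aplnr set and 4.87 in the Ackr1 set, and at 0.730 CPM in lymphatic cells. Between the Gja5 set and the members there was thus a gap of 5.24-fold, and the other 3 sets were lower still.

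Vegfc was at 368 CPM in members and 66.5 CPM in the other cells (5.53-fold, 5.29 to 5.78). The Gja5 set came close to the members with 241 CPM, while the Aplnr set had 65.8, the Apln set 44.4 and the Ackr1 set 32.4 CPM. Dkk2 had the same order, at 284 CPM in members, 146 in the Gja5 set, 50.7 in the Aplnr set, 38.3 in the Apln set and 24.7 in the Ackr1 set. Lymphatic cells were at 1.72 CPM for Vegfc and 7.53 CPM for Dkk2. In the plot of the 3 marker levels, the members lead each panel and the Gja5 set is next.

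**Figure D1:**
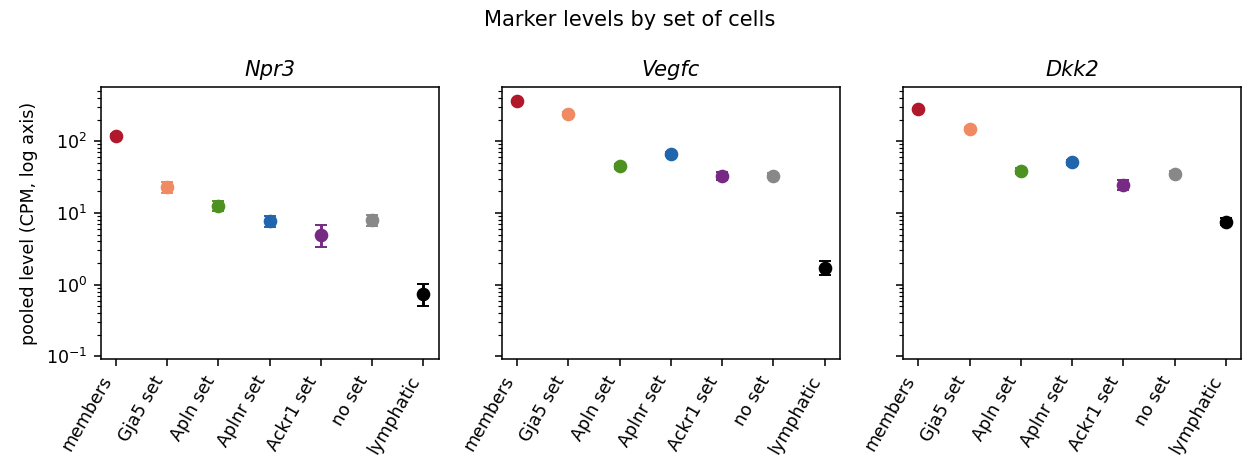
Pooled level (CPM, log axis) of Npr3, Vegfc and Dkk2 in the members, the cells of the 4 other sets, the kept BEC in no set and the lymphatic cells of the LEC sort; bars are 95% counting intervals. The members are at 119, 368 and 284 CPM and the Gja5 set cells at 22.7, 241 and 146 CPM.

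Within single members the 3 genes were found unevenly. After every cell was thinned to 5000 UMIs, a UMI of Vegfc was seen in 73.6% of members (69.7 to 77.2), of Dkk2 in 59.0% (54.8 to 63.2) and of Npr3 in 34.2% (30.3 to 38.4). In lymphatic cells, whose median depth was 10770.5 UMIs before thinning, the thinned shares were 0.351%, 1.76% and 0.189%. With all UMIs the shares in members were 90.9%, 78.7% and 58.7%. Members with all 3 genes numbered 208, those with 2 of them 288 and those with 1 numbered 53, so most members were chosen on 2 genes or fewer. Per 10000 UMIs of a cell, Vegfc had a median of 3.26 over members (0 to 23.6), Dkk2 of 2.101 (0 to 21.8) and Npr3 of 0.726 (0 to 12.4), and no gene had more than 1.55% of its member UMIs from 1 cell.

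Each score gene was also read in members chosen without it. Cells chosen with only Vegfc and Dkk2 in the score numbered 562, of which 465 were among the 549 members. Npr3 was at 83.1 CPM in them and 16.9 CPM elsewhere, 4.90-fold higher (4.48 to 5.36). Vegfc was at 255 against 88.3 CPM in the 567 cells chosen without it (2.89-fold, 2.76 to 3.02), and Dkk2 at 184 against 70.8 CPM in the 558 chosen without it (2.60-fold, 2.47 to 2.74). Each gene was therefore higher in the cells chosen with the other 2, by less than when it took part in the choice. The choice still asked this score to lead those of the other sets, so it did not rest on the other 2 genes alone. Of the 549 members, 418 were also chosen without Vegfc and 432 without Dkk2. When the UMIs of each cell were split at random into equal portions, one for choosing and one for reading, 552 cells were chosen, 478 of the 549 members among them, and Npr3 was 9.64-fold, Vegfc 5.20-fold and Dkk2 4.95-fold higher in the portion read.

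The z of members ran from 0.5001 to 4.01 with a median of 1.51, 22 members lay within 0.1 above the limit and 20 cells led by the same score lay within 0.1 below it. The 20 members nearest above the limit had Npr3 at 25.8, Vegfc at 178 and Dkk2 at 144 CPM, and the 20 cells nearest below had 23.8, 140 and 177 CPM; these 3 genes set the z by which both groups were picked. Outside the score, Stc1 was at 988 CPM in the 20 members and 630 CPM in the 20 cells below, Hey1 at 238 and 222 CPM and Esm1 at 2200 and 2105 CPM. A further 272 kept cells had a z over 0.5 for this score but a higher one for another set, 138 of them for the Gja5 set, 75 for Aplnr, 44 for Apln and 15 for Ackr1.

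Genes of the other sets were mostly low in members, which the rule favors but does not require. The venous adhesion receptor Selp was at 13.9 CPM against 117, and the chemokine-binding receptor Ackr1 at 6.56 against 149 CPM. Aplnr, the apelin receptor, was at 84.9 against 423 CPM and its ligand Apln at 141 against 278 CPM. Tnfrsf9, a costimulatory receptor, was at 43.1 against 156 CPM, the growth factor receptor gene Kit at 7.94 against 21.1 CPM, and Stmn2 at 32.8 against 130 CPM. The other set genes were not low. Ramp3, a partner of the adrenomedullin receptor, was at 305 against 310 CPM, the clotting factor gene Vwf at 89.6 against 75.2 CPM, the arterial gap junction gene Gja5 at 21.1 against 19.7 CPM and the semaphorin gene Sema3g at 24.7 against 13.98 CPM.

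Of the 7303 genes tested, the 14 score genes included, 233 (3.19%) were at least 1.5-fold higher in members than in all other kept BEC and 409 (5.6%) were lower. Outside the score, the 15 genes with the highest ratio ran from 2.14-fold to 3.98-fold. Slc45a4, a solute carrier, led at 75.7 against 19.0 CPM (3.98-fold, 3.64 to 4.35). Stc1, which encodes the secreted glycoprotein stanniocalcin, was at 1264 against 434 CPM (2.91-fold, 2.86 to 2.97). The ceramidase gene Acer2 was 2.73-fold, the Notch target Hey1 2.71-fold and the netrin receptor gene Unc5b 2.57-fold higher. Esm1, a secreted proteoglycan of sprouting endothelium, was at 3066 against 1297 CPM (2.36-fold). Igfbp3, which binds insulin-like growth factors outside the cell, was at 10645 against 4773 CPM (2.23-fold), and Efnb2, the arterial ephrin, at 136 against 58.0 CPM (2.35-fold). Mfge8, which bridges dying cells to phagocytes, was 2.16-fold higher. Cables1, Hspa2, Eogt, Fam57b, Armcx2 and Arhgap10 completed the 15, between 2.14-fold and 2.41-fold. Eogt encodes a glycosyltransferase that acts on EGF repeats such as those of Notch receptors.

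Single members differed widely in these genes. Stc1 ran from 0 to 51.7 UMIs per 10000 with a median of 11.2, Hey1 from 0 to 21.6 with a median of 2.44, and Esm1 from 0 to 223 with a median of 29.1. Igfbp3 was found in every member, from 0.892 to 335 UMIs per 10000 with a median of 104. No cell gave more than 2.79% of the member UMIs of any of the 15.

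The 10 genes with the lowest ratio were between 0.171 and 0.342 times the level of the other cells. Tgfbi, a matrix protein induced by TGF-beta, was at 9.58 against 56.1 CPM, and 22.5% of its member UMIs came from 1 cell. The protease inhibitor gene Spint2 was at 15.6 against 82.9 CPM and the lysosomal carboxypeptidase gene Prcp at 29.6 against 156 CPM. Of the elastic fiber genes, Fbln5 was at 30.7 against 160 CPM and Fbln2 at 20.5 against 98.2 CPM, with 10.96% of the Fbln5 member UMIs from 1 cell. Tgm2, Ptgs1, Odc1, Dpysl3 and Il6st were the others. In the Ackr1 set several of these were far above every other set: Spint2 at 410 CPM, Il6st at 397, Prcp at 343 and Ptgs1 at 208 CPM. For Fbln5 the Gja5 set was high as well, at 504 CPM beside 632 CPM in the Ackr1 set.

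**Figure D2:**
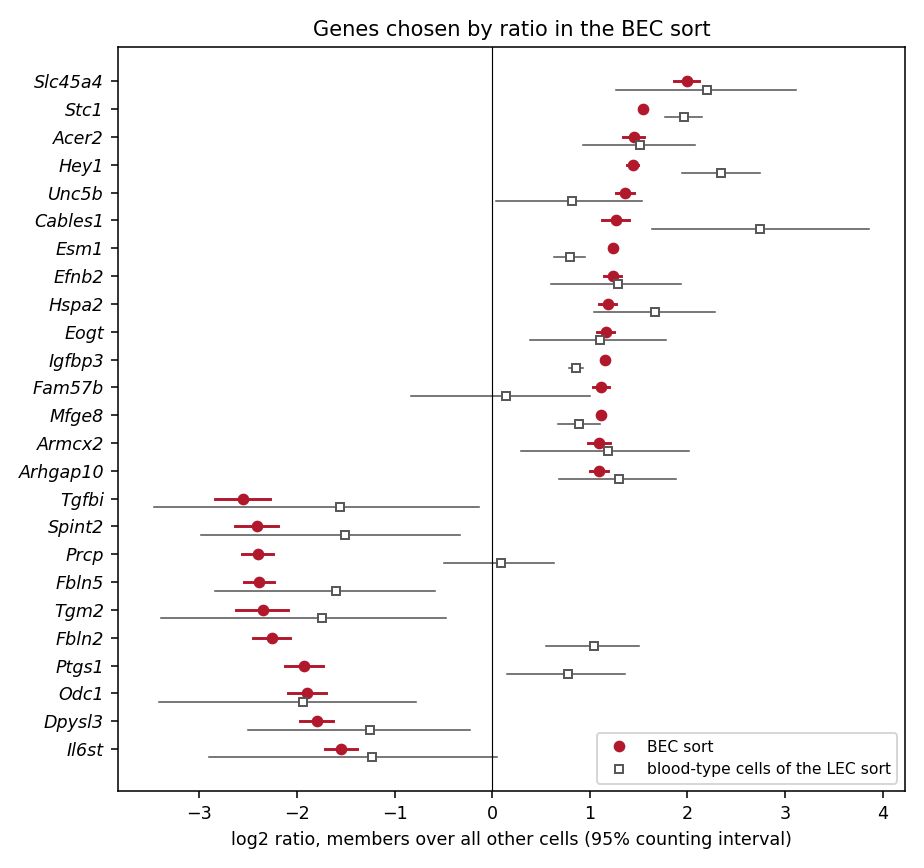
Log2 ratio of pooled levels, members over all other cells, for the 15 genes with the highest and the 10 with the lowest ratio in the BEC sort (filled circles), and the same in the 87 blood-type cells of the LEC sort (open squares); bars are 95% counting intervals. Filled circles run from Slc45a4 at 3.98-fold to Tgfbi at 0.171 times; in the LEC sort Prcp, Fbln2 and Ptgs1 lie on the other side of 0.

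Against each set by itself the background of called genes differed. Relative to the Gja5 set 221 genes were higher (3.03%) and 438 lower (6%), relative to the Aplnr set 315 (4.31%) and 363 (4.97%), relative to the Apln set 555 (7.6%) and 468 (6.41%), and relative to the Ackr1 set 860 (11.8%) and 858 (11.7%). Only 22 genes (0.301%) were at least 1.5-fold higher in members than in each of the 4 sets, and 86 (1.18%) were lower than in each. Beyond Npr3, Vegfc and Dkk2, the 22 held 5 of the 15 genes above, Slc45a4, Acer2, Hspa2, Fam57b and Igfbp3.

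The 8 genes with the highest smallest ratio over the 4 sets included some with a flat level in every other class. Aqp1, the water channel, was at 8011 CPM in members and between 3971 and 4872 CPM in the 4 sets, at least 1.64-fold higher than each. The septin gene Sept4 was at 920 CPM, against 226 to 546 CPM. Hspa2, a heat shock protein gene, was at 139 CPM, against 38.5 to 73.6 CPM. Myl4, a myosin light chain gene, was at 47.8 CPM, against 14.05 to 29.6 CPM. Acer2 was at 96.4 CPM, against 31.7 to 55.1 CPM. Airn, at 47.5 CPM against 20.5 to 28.7 CPM, is annotated antisense on chromosome 17 and overlaps Igf2r, itself 1.69-fold higher in members than in all other cells. The sources used here do not state whether strand entered the count, so reads of Airn and Igf2r cannot be told apart with certainty. Fam57b and Slc45a4 complete the 8.

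Lists of genes were then counted. They were chosen with earlier results of these data known, and counts are against all other kept BEC, to be read beside the 3.19% and 5.6% of all genes and their median log2 ratio of -0.02. Genes named below to account for a small count, outside the rule for named genes, were picked after their values were seen.

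In the natriuretic peptide list 4 of 13 genes reached 10 CPM, and Npr3 was the only one higher. Npr1, the signaling receptor for atrial and B-type peptides, was at 29.1 against 39.2 CPM (0.742 times, 0.660 to 0.833), and Pde2a, which breaks down cyclic nucleotides, at 26.1 against 58.1 CPM (0.448 times). Furin, a protease that matures precursors of many peptides, was at 42.0 against 32.5 CPM (1.29-fold). Npr3 is a gene of the score, so its higher level was set by the choice of members. Npr1 was somewhat lower than in the other cells, by less than 1.5-fold. Among the single sets it was at least 1.5-fold lower only against the Ackr1 set. The ligand genes were scarce: Nppa and Nppc gave no UMI in members and Nppb gave 1. A count of 0 over the members allows a level of up to 0.259 CPM, the worth of 3 UMIs.

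Of 7 tested VEGF ligands and receptors, Vegfc and Flt1 were higher and Pgf lower (median log2 ratio 0.42), Vegfc being a gene of the score. Flt1, a receptor that can act as a decoy for VEGF-A, was at 1756 against 1062 CPM (1.65-fold, 1.63 to 1.68). Kdr, the main signaling receptor of blood vessels, was at 547 against 369 CPM (1.48-fold), the co-receptor gene Nrp1 1.34-fold and Flt4, the receptor of VEGF-C, 1.30-fold higher, all short of 1.5-fold. Nrp2, a co-receptor for VEGF-C, was at 0.680 times. Pgf was at 5.95 against 64.3 CPM, and it was high in the Apln set, at 207 CPM, and low in the Aplnr set, at 6.2 CPM. Vegfa gave no UMI in members. The proteins that process VEGF-C precursor were not detected as transcripts either, with 0 UMIs of Ccbe1 and Adamts3, while the protease gene Furin was present.

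Of 9 tested Wnt genes, Dkk2 and the receptor gene Fzd6 were higher and none was lower (median log2 ratio 0.22), Dkk2 being a gene of the score. Fzd6 was at 25.02 against 15.8 CPM (1.59-fold). The Dkk2 co-receptor genes Lrp5 (19.8 against 18.6 CPM) and Lrp6 (17.4 against 14.8 CPM) were close to the other cells, as were Ctnnb1, which encodes beta-catenin, at 315 against 269 CPM and Tspan12, a partner of the receptor encoded by Fzd4, at 215 against 184 CPM. Fzd4 itself was at 52.8 against 66.0 CPM. Transcripts that report active Wnt signaling were few: Axin2 gave 9 UMIs in members and Lef1 none.

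Notch genes were higher in part. Of 10 tested, Dll4, Hey1, Nrarp, Notch1 and Notch4 were higher and Dll1 and Lfng lower (median log2 ratio 0.46). Dll4, the main Notch ligand of sprouting endothelium, was at 433 against 211 CPM (2.06-fold, 1.99 to 2.13). Its order was members, the Gja5 set at 304, the Apln set at 265, the Aplnr set at 205 and the Ackr1 set at 57.3 CPM. The target and feedback gene Nrarp was at 604 against 357 CPM (1.69-fold), whereas Hes1, another target, was at 209 against 226 CPM. Hey1 was at 299 CPM in members, 277 in the Gja5 set, 107 in the Aplnr set, 81.1 in the Apln set and 29.4 in the Ackr1 set, so the members and the Gja5 set were within 1.08-fold of each other. Relative to the Gja5 set no Notch gene was higher and 3 were lower (median log2 ratio -0.00), relative to the Apln set 5 were higher and 1 lower.

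The arterial list split. Of 13 tested genes, Gja4, Sema3g, Hey1 and Efnb2 were higher in members and Stmn2, Fbln5, Mgp and Fbln2 lower (median log2 ratio -0.01), 3 of the 13 being genes of the Gja5 score. Efnb2 was at 136 CPM in members and 135 CPM in the Gja5 set, against 32.9 to 60.3 CPM in the other 3 sets. Gja4, the gap junction gene of arterioles, was at 376 CPM in members, 1120 in the Gja5 set, 130 in the Aplnr set and 23.1 in the Apln set. Mgp, an inhibitor of calcification in artery walls, was at 12.6 CPM in members and 375 CPM in the Gja5 set. Sox17, an arterial transcription factor gene, was at 195 CPM, with 153 CPM in all other cells and 265 CPM in the Gja5 set. Relative to the Gja5 set 10 of the 13 were lower and none higher (median log2 ratio -1.68), and relative to the Apln set 7 were higher and none lower (0.76). The members therefore had Hey1 and Efnb2 at the level of the Gja5 set and the elastic fiber and matrix genes Fbln5 and Mgp near the low level of the Apln and Aplnr sets.

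Of 10 venous genes none was higher and 6 were lower, Nr2f2, Ackr1, Selp, Vcam1, Icam1 and Aplnr (median log2 ratio -1.05), 3 of these being score genes. Nr2f2, which encodes a transcription factor that sets venous identity, was at 12.3 against 34.1 CPM. It stood at 119 CPM in the Ackr1 set and at 14.4 CPM in the Gja5 set. The heat map of Notch, arterial and venous genes shows these classes side by side.

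**Figure D3:**
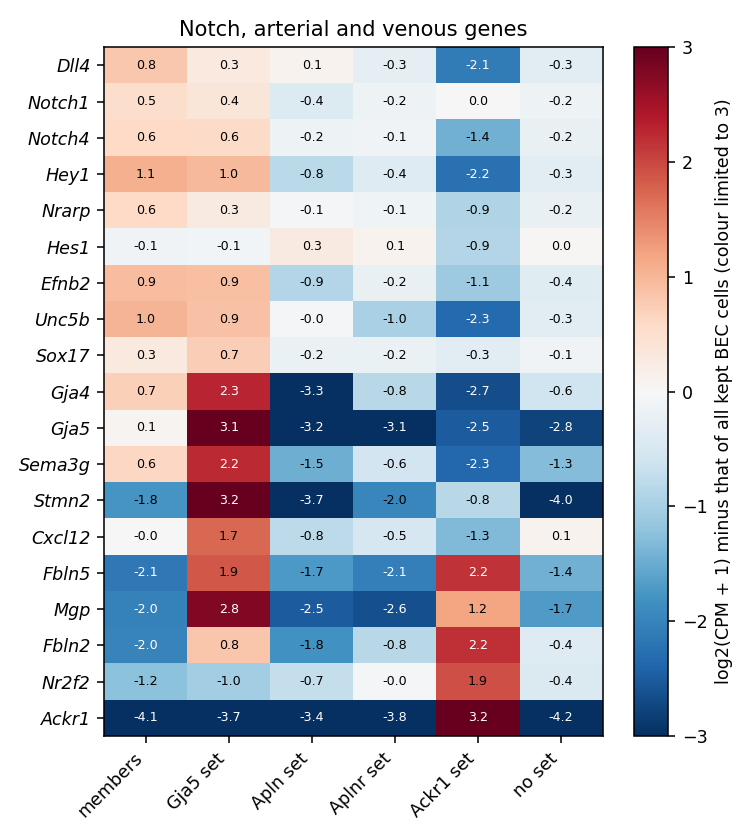
Log2(CPM + 1) of each class minus that of all kept BEC, for Notch, arterial and venous genes (rows) in the members, the cells of the 4 other sets and the kept BEC in no set (columns); colour is limited to 3 and the numbers are the values. Members and Gja5 set cells are alike for Hey1 and Efnb2 and far apart for Stmn2, Fbln5 and Mgp.

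The genes of sprouting tips did not move as a block. Of 26 tested, Esm1, Angpt2, Cxcr4, Igfbp3, Unc5b, Dll4 and Inhbb were higher and Apln, Adm, Trp53i11, Tnfrsf9 and Kit lower (median log2 ratio 0.23), and 3 of the 5 lower genes belong to the Apln score. Angpt2, a context-dependent ligand of the Tie receptor encoded by Tek, was at 1188 CPM in members and 1382 CPM in the Apln set, but at 546, 383 and 203 CPM in the Gja5, Aplnr and Ackr1 sets. Esm1 was at 3066 CPM in members, 2234 in the Apln set, 1641 in the Gja5 set, 831 in the Aplnr set and 287 in the Ackr1 set. Plvap, the fenestral diaphragm gene, was at 6054 against 4659 CPM (1.30-fold). Relative to the Gja5 set 10 tip genes were higher and none lower, and relative to the Apln set 5 were higher and 5 lower. In the angiopoietin-Tie list Ptprb, a phosphatase that restrains Tie signaling, was 1.69-fold higher at 397 CPM, Tek was at 28.1 against 43.9 CPM (0.640 times) and Tie1 at 233 against 188 CPM (1.24-fold).

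In the BMP and TGF-beta list, with 17 genes tested, 7 were higher and Id2 was lower (median log2 ratio 0.41). The higher genes were Bmpr2, Tgfb2, Smad6, Smad7, Id1, Bambi and Inhbb. Id1, a direct BMP target, was at 825 against 549 CPM (1.504-fold, 1.47 to 1.54) and at 972 CPM in the Gja5 set. The related Id3 was at 1355 against 1021 CPM (1.33-fold), the co-receptor gene Eng at 2069 against 1620 CPM (1.28-fold) and Tgfb1 at 419 against 442 CPM. The pathway inhibitors Smad6 and Smad7 were 1.61-fold and 1.90-fold higher. Relative to the Gja5 set 2 genes of this list were higher and 3 lower, and relative to the Apln set 11 were higher and 1 lower.

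Among insulin-like growth factor binding genes 3 of 6 were higher, Igfbp3, Igfbp7 and Igf2r. Igfbp7, a secreted protein of tumor vessels, was at 28520 against 18399 CPM (1.55-fold) and lowest of the 5 sets in the Ackr1 set, at 12871 CPM. Igfbp4 was at 618 against 561 CPM and Igfbp5 at 30.2 against 36.6 CPM. In the basement membrane list 2 of 14, the laminin genes Lama5 and Lamb2, were higher and none lower (median log2 ratio 0.36). The type IV collagen genes Col4a1 and Col4a2 were 1.21-fold and 1.29-fold higher and Sparc, a matrix-binding glycoprotein, 1.35-fold.

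Capillary and lipid uptake genes went in different directions. Of 12 tested, Gpihbp1, Aqp1 and Btnl9 were higher and Fabp4, Fabp5, Tcf15, Pparg and Slc27a3 lower. Gpihbp1, which carries lipoprotein lipase to the capillary lumen, was at 6011 against 3434 CPM (1.75-fold, 1.73 to 1.77). Fabp4, a fatty acid carrier, was at 2232 CPM in members, below each of the other sets, which ran from 3833 CPM (Aplnr) to 10863 CPM (Ackr1). The transcription factor gene Tcf15 was at 20.5 CPM, against 69.9 CPM in the Gja5 set and 19.5 CPM in the Aplnr set.

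All 10 genes of the cell cycle list were lower in members, from 0.284 times for the proliferation marker Mki67 to 0.624 times for the kinase gene Cdk1 (median log2 ratio -1.13). Summed, they were at 315 CPM in members (305 to 325) and 634 CPM in the other kept cells, with 433 CPM in the Gja5 set, 516 in the Ackr1 set, 575 in the Aplnr set, 587 in the Apln set and 884 in the cells of no set. The share of cells with at least 2 UMIs from the list, after thinning to 5000 UMIs, was 21.1% in members (17.8 to 24.8) and 30.6% in the others (28.9 to 32.4), and 22.98% in the Gja5 set (18.4 to 28.1). With all UMIs it was 52.3% and 63.0%. Against the Gja5 set 5 of the 10 genes were at least 1.5-fold lower, against the Ackr1 set 7, and against the Apln and Aplnr sets all 10. Without the cells that met this 2-UMI criterion, in members and others alike, 4 of the 10 genes were at least 1.5-fold lower. That criterion was read from the same 10 genes, so the cells left cannot show a difference apart from cycling. With members chosen without Dkk2 and no cells left out by the criterion, 6 of the 10 were at least 1.5-fold lower. Cells under 1% mitochondrial UMIs made up 2.55% of members and 5.11% of the others, and without these cells all 10 genes were still at least 1.5-fold lower in members.

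**Figure D4:**
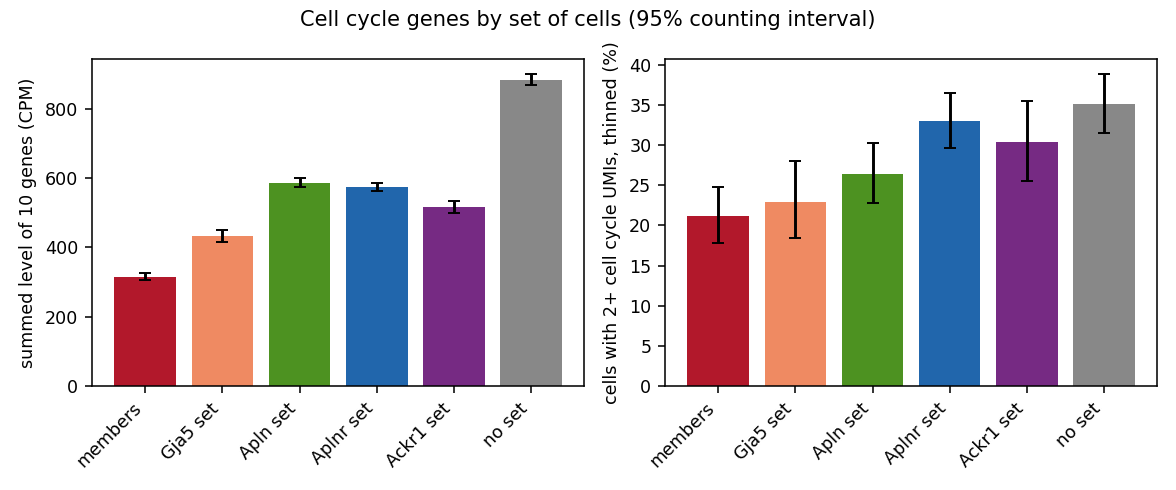
Left, summed level (CPM) of 10 cell cycle genes in the members, the cells of the 4 other sets and the kept BEC in no set; right, share (%) of cells with at least 2 UMIs from these genes after thinning to 5000 UMIs. Bars are 95% counting intervals; the members are at 315 CPM and 21.1%, the cells of no set at 884 CPM and 35.1%.

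Hypoxia genes depended on the set compared. Against all other kept BEC none of 11 tested was higher in members and Adm and Bnip3 were lower (median log2 ratio -0.45). Adm, the gene of the vasodilator adrenomedullin, was at 68.5 against 162 CPM, with 477 CPM in the Apln set and 33.2 to 48.1 CPM in the other 3 sets. Ndrg1 was at 111 against 165 CPM, and highest in the Ackr1 set at 293 CPM. Relative to the Apln set 8 of the 11 were lower and none higher, and relative to the Aplnr set none passed in either direction. Relative to the Gja5 set 4 were higher (Adm, Ankrd37, P4ha1 and Slc2a1) and 3 lower, and relative to the Ackr1 set 3 were higher (Adm, Ankrd37 and Slc2a1) and 4 lower. In the glycolysis list 9 of 14 were lower than in the Apln set and none passed 1.5-fold against the Aplnr set. The glycolytic enzyme gene Pkm was at 1111 CPM in members, 2067 in the Apln set and 1147 in the Aplnr set.

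Over the kept BEC the levels of the genes given here changed with the score, for Stc1 below the limit as well as above it. Most of these genes were picked for their ratio between members and other cells or belong to a set. A trend along the same score was therefore in large part built in. The cells were divided into 6 bands of z, from 1425 cells in the lowest band to 162 with z over 2. Stc1 was at 245, 432, 650, 989, 1177 and 1573 CPM along the bands, and Hey1 went from 68.6 to 375 CPM. Igfbp3 went from 3223 to 12075 CPM, Aqp1 from 3352 to 8598 CPM and Esm1 from 918 to 3705 CPM. Gja4 went from 61.5 to 666 CPM. In the other direction Aplnr went from 544 to 44.8 CPM, Ackr1 from 197 to 4.33 CPM and Nr2f2 from 41.5 to 5.56 CPM. Cells chosen for another set are part of these bands, and the set genes Aplnr and Ackr1 are restricted by the same choice.

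**Figure D5:**
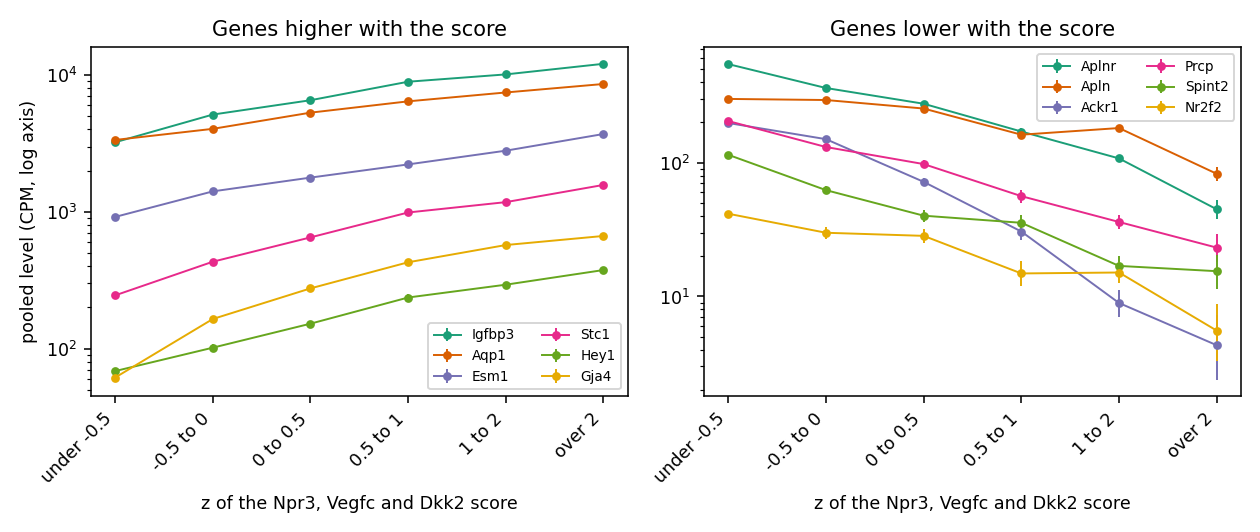
Pooled level (CPM, log axis) of 6 genes that were higher and 6 that were lower with the z of the Npr3, Vegfc and Dkk2 score, over 6 bands of z in the 3170 kept BEC; bars are 95% counting intervals. Stc1 goes from 245 to 1573 CPM and Ackr1 from 197 to 4.33 CPM.

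The members also differed among themselves by the set that came second. For 191 the second highest z was that of the Gja5 set, for 126 the Apln set, for 125 the Aplnr set and for 107 the Ackr1 set, and in 228 the second set was itself over the limit. Members with the Gja5 set second had Vegfc at 448 CPM, Hey1 at 378, Stc1 at 1519 and Gja4 at 649 CPM. Those with the Apln set second had Vegfc at 295, Hey1 at 221, Stc1 at 1114 and Gja4 at 142 CPM, and those with the Aplnr set second had 340, 269, 960 and 269 CPM. Angpt2 was at 1638 CPM with the Apln set second and at 936 CPM with the Aplnr set second. Some genes hardly varied over the 4 groups: Aqp1 stayed between 7378 and 8497 CPM, Sept4 between 858 and 969 CPM and Airn between 45.1 and 49.3 CPM. The 321 members with no second set over the limit had Npr3 at 105, Vegfc at 338, Dkk2 at 301, Stc1 at 1248 and Hey1 at 309 CPM, close to the values over all members.

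The LEC sort held a few cells that met the same rule. In it 87 cells (1.97%) had at least 10 UMIs from the blood endothelial genes Flt1, Esam, Cd93 and Ptprb and under 10 from the lymphatic genes Lyve1, Pdpn and Mmrn1, and none shared a barcode with the BEC sort. Scored with the means and standard deviations of the BEC sort, 14 of the 87 (16.1%, 9.09 to 25.5) met the rule for members. These 14 cells, from the same animals, had no part in choosing the 25 genes of highest and lowest ratio. They were picked by the same score, so the contrast describes that choice in another sort and is not an independent check. The 25 genes had also passed filters on level and share of cells in the BEC sort. The shares of all genes given beside them rest on a minimum level only, so they are not like for like. Of the 15 genes highest in the BEC sort, all 15 had a ratio over 1 in the LEC sort and 14 were at least 1.5-fold higher in the 14 cells than in the other 73, where 20.1% of all 7248 genes tested were that much higher. Stc1 was at 1541 against 396 CPM (3.90-fold, 3.41 to 4.45) and Hey1 at 419 against 82.4 CPM (5.09-fold, 3.86 to 6.70). Igfbp3 was 1.81-fold and Esm1 1.74-fold higher, and Fam57b, with 13 UMIs in the 14 cells, was at 1.10-fold (0.562 to 2.01). Of the 10 lowest genes 7 were at least 1.5-fold lower, where 31.9% of all genes were. The other 3 were higher: Fbln2 2.06-fold (1.47 to 2.84), Ptgs1 1.71-fold (1.11 to 2.56) and Prcp 1.06-fold (0.708 to 1.55). Other genes also turned. Nr2f2 was at 64.2 against 36.1 CPM (1.78-fold, 0.932 to 3.20), Kit at 12.8 against 5.45 CPM (2.36-fold, 0.403 to 9.82, on 3 UMIs in the 14 cells) and Tek had a log2 ratio of 1.55, where all 3 were lower in the members of the BEC sort. Sema3g, higher in the BEC members, gave no UMI in the 14 cells and 6.81 CPM in the others, a ratio of up to 2.80 by its interval.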

How the data were processed

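Endothelial cells of 2 sorts were profiled as droplet single-cell libraries. The values were UMI counts per gene and cell, deposited by the authors as 1 matrix of 28692 gene symbols and 7635 cells. The submitters' processing notes name Cell Ranger 2.1.1 and the build mm10, and the authors' cell filter is not stated in what was read here. Total UMIs were 71304111 in the BEC sort and 59273049 in the LEC sort. Column names carried no library, so each sort counted as 1 sample and no test was made.

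Counts were summed over the cells of a class and scaled to CPM. Log2 ratios used a pseudocount of 1 CPM. Genes were kept at 10 CPM or more over all kept BEC, and 1.5-fold was the size counted. For shares of cells each cell was thinned to 5000 UMIs, and no cell was shallower. Lymphatic cells of the LEC sort had at least 10 UMIs from Lyve1, Pdpn and Mmrn1. The members and the 44 gene lists were chosen with earlier results of these data known.

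Named genes were the 15 with the highest and 10 with the lowest ratio, and the 8 with the highest smallest ratio over the 4 other sets, among genes at 25 CPM or more over all kept BEC and found in at least 25% of cells of the higher side. The 14 score genes, unnamed gene models and genes for mitochondrial transcripts, ribosomal proteins and haemoglobins were left out of these ranks. The score genes, the natriuretic peptide, VEGF and Wnt genes at 10 CPM or more, and the 4 most abundant genes of every other list were also picked. Not all of these appear in the text, and some lists, among them the integrin, cell junction and endocardial ones, are not described. Alternatives changed the choice of members, the cells, the scaling, the fold, the filter, the pseudocount and the thinning. Scoring and pooling were tested on simulated data. Python 3.11.15, numpy 2.4.6, scipy 1.17.1, pandas 2.3.3 and matplotlib 3.10.9 were used.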

Additional observations from a re-analysis of the deposited data

Results flagged for a closer look

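Cells that meet the rule for members appeared in the LEC sort, which the comparisons within the BEC sort do not use. They numbered 14 of 4407 cells, 0.318% (95% interval 0.174 to 0.532), a number given as a description because it lies outside the sort studied. None shared a barcode with the BEC sort. The 14 cells were among 87 cells of that sort with blood endothelial transcripts, of which 18 met the rule for the Aplnr set, 16 for the Apln set, 7 each for the Gja5 and Ackr1 sets, and 25 for none.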

How the results depend on the processing

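The number of members ran from 422 to 599 over the 10 alternatives that changed how they were chosen. Of 549 members, 429 were also chosen on thinned cells. Of 24 alternatives in all, 23 gave gene values, and in these the 50 followed genes past 1.5-fold kept their direction in 1145 of 1150 values. The 5 exceptions were log2 ratios in the blood-type cells of the LEC sort, an alternative chosen after seeing the data: Prcp 0.090, Fbln2 1.03, Ptgs1 0.77, Tek 1.55 and Nr2f2 0.81. The cause was not tested. Over all 54 genes followed, 878 of 1242 values stayed within the counting interval of the reported value. The followed genes included Npr3, Vegfc and Dkk2 and the genes ranked by ratio in these same data. Changes of the fold, the minimum or the pseudocount cannot reverse a direction. The agreement in direction was therefore in large part fixed beforehand. With a fold of 2 instead of 1.5, 44 genes were higher, 174 lower, and 6 of 10 cell cycle genes lower. At a minimum of 50 CPM 94 were higher and 107 lower, from fewer genes tested, and with no minimum 1692 and 4900, where most genes have few UMIs. Cell cycle genes lower by 1.5-fold numbered 6 with members chosen without Dkk2 and 4 without cycling cells. Without thinning the shares of members with a UMI were 58.7% for Npr3, 90.9% for Vegfc and 78.7% for Dkk2, and 52.3% for the cell cycle criterion, since more UMIs were read per cell. The median log2 ratio of the pooled profiles was -0.02, and median-of-ratios scaling, which sets it to 0, gave 262 genes higher and 380 lower. No paired analysis was possible because the columns carry no library number, and for the same reason no library could be left out.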

Other observations

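Several other lists showed few differences between members and all other kept BEC, beside 3.19% of all genes higher and 5.6% lower. None of 14 interferon genes passed 1.5-fold in either direction: Isg15 was at 295 against 208 CPM and Bst2 at 679 against 663 CPM. Of 15 immediate-early genes, which tissue dissociation can induce, 1 was lower, and Fos was at 1518 against 1308 CPM. Of 8 antigen presentation genes 1 was lower, with B2m at 3508 against 3658 CPM. More genes passed against some single sets. Relative to the Ackr1 set 3 interferon genes were higher and 3 lower, and 1 immediate-early gene was higher and 6 lower. In that contrast 3 antigen presentation genes were lower, and 11.8% of all genes were higher and 11.7% lower. Relative to the Aplnr set 3 interferon and 3 immediate-early genes were higher and none lower. Some of the immune-facing genes that were lower than in all other kept BEC were high in the Ackr1 set. Icam1, the adhesion molecule for leukocytes, was at 55.6 CPM in members and 387 CPM in the Ackr1 set, Vcam1 at 7.76 and 74.2 CPM, and the cytokine gene Il6 at 33.8 and 233 CPM, with 22.96% of its member UMIs from 1 cell. The chemokine gene Cxcl9, also lower than in all other cells, was at least 1.5-fold higher than in the Ackr1 set, and 46.99% of its member UMIs came from 1 cell. Ccl2, a monocyte chemokine, was at 2.24 CPM in members and 22.8 CPM in the other cells.

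Of 26 endothelial transcription factor genes 4 were higher, Mecom, Foxf1, Hlx and Smad6, and Nr2f2 and Tcf15 were lower. Foxf1 was at 24.6 against 11.9 CPM (2.07-fold, 1.79 to 2.38) and at least 1.71-fold higher than in each of the 4 sets. Hlx was at 345 against 227 CPM (1.52-fold). Klf2, a flow-responsive factor, was at 929 against 934 CPM, although the Gja5 set had 1592 CPM. Of 13 matrix remodelling genes 4 were lower and none higher, and the membrane protease gene Mmp14 was at 280 against 309 CPM. Of 4 tested mural genes (median log2 ratio -0.31) the channel genes Kcnj8 and Abcc9, which pericytes also express, were 1.59-fold and 1.62-fold higher in members, the contractile genes Acta2 and Tagln were lower, and Pdgfrb and Cspg4 were at 0. Kcnj8 was at 143 CPM in members, 138 in the Apln set, 104 in the Aplnr set and 43.0 in the Gja5 set.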
